A study of Mus musculus with 28 samples.

Results

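The endothelial genes described here are 10 of the 28244 genes of the count table: *Kdr*, *Flt1*, *Tek*, *Tie1*, *Pecam1*, *Cldn5*, *Emcn*, *Vwf*, *Egfl7* and *Sox17*. They were chosen by name, and all 10 were found. PolyA RNA was sequenced in 28 samples of 11 groups, labelled as C57BL/6 mice. The methods of the study differ from this label: they give its wild-type mice, to which the transgenic lines were bred, as CD1 or CD1 mixed with C3H. Peripheral neural stem cells (pNSCs) are lines that grow like brain neural stem cells (NSCs) but were derived from tissue outside the central nervous system. In the Nes-GFP experiment, mice expressed GFP under regulatory elements of the Nestin gene, and sorted GFP-positive cells gave lung pNSCs (from adults) and tail pNSCs (from postnatal mice). They stand beside brain NSCs, lung cells and tail cells, with n = 2 per group. The labels do not name the reporter for these 10 samples, and their place in this experiment is taken from the design of the study. In the Sox2-GFP experiment, lung pNSCs came from sorted GFP-positive cells of postnatal mice with GFP knocked into the Sox2 locus, and brain NSCs were their control (n = 3 each). In the Wnt1Cre-mTmG experiment, Wnt1-Cre switches a reporter from Tomato to GFP in the neural crest lineage. Its tail pNSCs and dorsal root ganglion (DRG) pNSCs came from postnatal tissue and were Tomato-positive and GFP-negative. The study plated unsorted cells, and it also derived tail pNSCs from sorted GFP-negative cells. Which of these were sequenced is not given in the sources used here. The pNSCs stand beside brain NSCs of the same genotype and neural crest stem cells (NCSCs) from the DRG of adult wild-type mice (n = 3 each). The pNSC lines were started from single picked clusters, so that a group may be 1 clone. The labels do not give the age of the lung and tail cells or whether they had been cultured, nor the age of the brain donors in each group.

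Endothelial cells line blood vessels. Vascular endothelial growth factors act on the receptor tyrosine kinases encoded by *Kdr* and *Flt1*, and angiopoietins on the one encoded by *Tek* (Tie2), with the related orphan receptor encoded by *Tie1* beside it. *Pecam1* (CD31), the tight junction gene *Cldn5* and the sialomucin gene *Emcn* encode surface proteins. *Vwf* encodes the clotting protein von Willebrand factor, *Egfl7* a secreted matrix protein and *Sox17* a transcription factor of arterial endothelium. Some of these genes are also known from other cells, as *Kdr* and *Flt1* are from neural cells. Most of them lie without exon overlap in GENCODE on GRCm38, but *Egfl7* (chromosome 2, 26580014 to 26593120) shares 264 exon bases with *Gm20532* on its own strand and 64 with *Agpat2* on the other. It also holds *Mir126a*. *Sox17* (chromosome 1, 4490931 to 4497354) shares 804 exon bases with *Gm37587* on the opposite strand. Whether counting used the strand is not given in the sources used here, and reads of such overlaps cannot be told apart.

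Promoter sequences from RefSeq (GRCm38.p6) were matched for 7 of the 10 genes, with 9 start sites in all. The 250 bases before the start are shown for *Kdr*, *Flt1* and *Tie1*, kinase genes that behaved differently in the cultured lines, and for *Cldn5*, which was nearly absent from them. They are at chr5:75978456-75978705 (minus strand), chr5:147726012-147726261 (minus), chr4:118489850-118490099 (minus) and chr16:18776597-18776846 (plus). Capitals mark the motif AGGAAG, an ETS core, read on either strand.
Kdr: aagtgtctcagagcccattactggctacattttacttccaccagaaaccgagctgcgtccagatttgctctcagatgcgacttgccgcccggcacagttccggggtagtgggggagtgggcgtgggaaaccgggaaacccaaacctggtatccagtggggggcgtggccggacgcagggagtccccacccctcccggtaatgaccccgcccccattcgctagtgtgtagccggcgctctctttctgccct
Flt1: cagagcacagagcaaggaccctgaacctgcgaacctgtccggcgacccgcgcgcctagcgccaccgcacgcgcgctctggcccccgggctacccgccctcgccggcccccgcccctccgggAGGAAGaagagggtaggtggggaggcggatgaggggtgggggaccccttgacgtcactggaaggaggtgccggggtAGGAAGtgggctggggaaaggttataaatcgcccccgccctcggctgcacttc
Tie1: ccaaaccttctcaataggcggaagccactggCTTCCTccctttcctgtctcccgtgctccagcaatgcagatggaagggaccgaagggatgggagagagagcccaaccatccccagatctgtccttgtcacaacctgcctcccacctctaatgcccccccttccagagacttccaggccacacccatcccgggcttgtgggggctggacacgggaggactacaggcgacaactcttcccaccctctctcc
Cldn5: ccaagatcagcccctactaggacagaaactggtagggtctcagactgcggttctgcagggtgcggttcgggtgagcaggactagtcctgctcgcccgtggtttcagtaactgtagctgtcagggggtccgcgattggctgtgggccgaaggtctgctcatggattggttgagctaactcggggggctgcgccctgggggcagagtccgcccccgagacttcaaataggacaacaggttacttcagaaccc
In windows from 250 bases before to 50 after the start, AGGAAG was found on either strand at 5 of the 9 starts, in *Flt1*, *Tie1*, *Egfl7* and *Emcn*. Of all 32851 promoters of this length, 35.4% hold it. The longer ETS motif CCGGAAGT (3.89% of all promoters) and the SOX motif ACAATG (12.6%) were found at none of the 9. The long motif does not contain AGGAAG. These are matches of letters, and no binding was measured.

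The totals ran from 9808246 to 22637031 counts per sample, and they were lowest in the brain NSCs and DRG pNSCs of the Wnt1Cre-mTmG experiment. Levels are given as counts or as cpm, counts scaled to a library of 1e6, with TMM normalisation factors from all 28 samples. An amount of 3 counts in a library was taken as the smallest detectable one. A gene was called at an adjusted p under 0.05 and at least a 2-fold change in edgeR's quasi-likelihood test. Against tissue, many adjusted p-values fell below what the computer can store and are not printed. A fold change is the ratio of mean cpm in the fit of the experiment. Where a group had a mean of at most 3 counts, the ratio of the summed counts is given with a 95% exact interval of counting error. Where all its libraries were at 0, the fold is a bound against 3 counts per library. Lung epithelial genes summed to 31461 to 32146 cpm in lung and 353 to 357 cpm in tail cells, and 5 of 5 neural stem cell genes were higher in lung and tail pNSCs than in the tissues. NCSC replicate 3 stood apart from the other two. Its squared differences per gene were 16.8 and 21.02 times those of counting error, against 2.22 between replicates 1 and 2.

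All 10 genes were highest in lung cells and next in tail cells, and in every gene all tissue libraries lay above all 24 libraries of cultured lines. *Vwf* and *Pecam1* were the most abundant in lung cells, at 1129 ± 36.9 and 1074 ± 15.8 cpm (mean ± s.d., n = 2). Per kilobase of exon the order was led by *Cldn5* (411 ± 5.79 cpm per kb), followed by *Pecam1* (172 ± 2.53), *Tek* (138 ± 0.838) and *Egfl7* (131 ± 1.99). *Emcn* was the lowest (13.3 ± 0.389). In tail cells *Pecam1* led (48.7 ± 0.851 cpm per kb), before *Cldn5* (38.96 ± 1.48) and *Tie1* (30.4 ± 1.08), and *Sox17* was the lowest (4.86 ± 0.00453). Neighbours in these orders did not overlap, apart from *Tek* and *Egfl7* in tail cells. In bulk samples, fewer endothelial cells and less RNA per cell cannot be told apart.

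**Figure D1:**
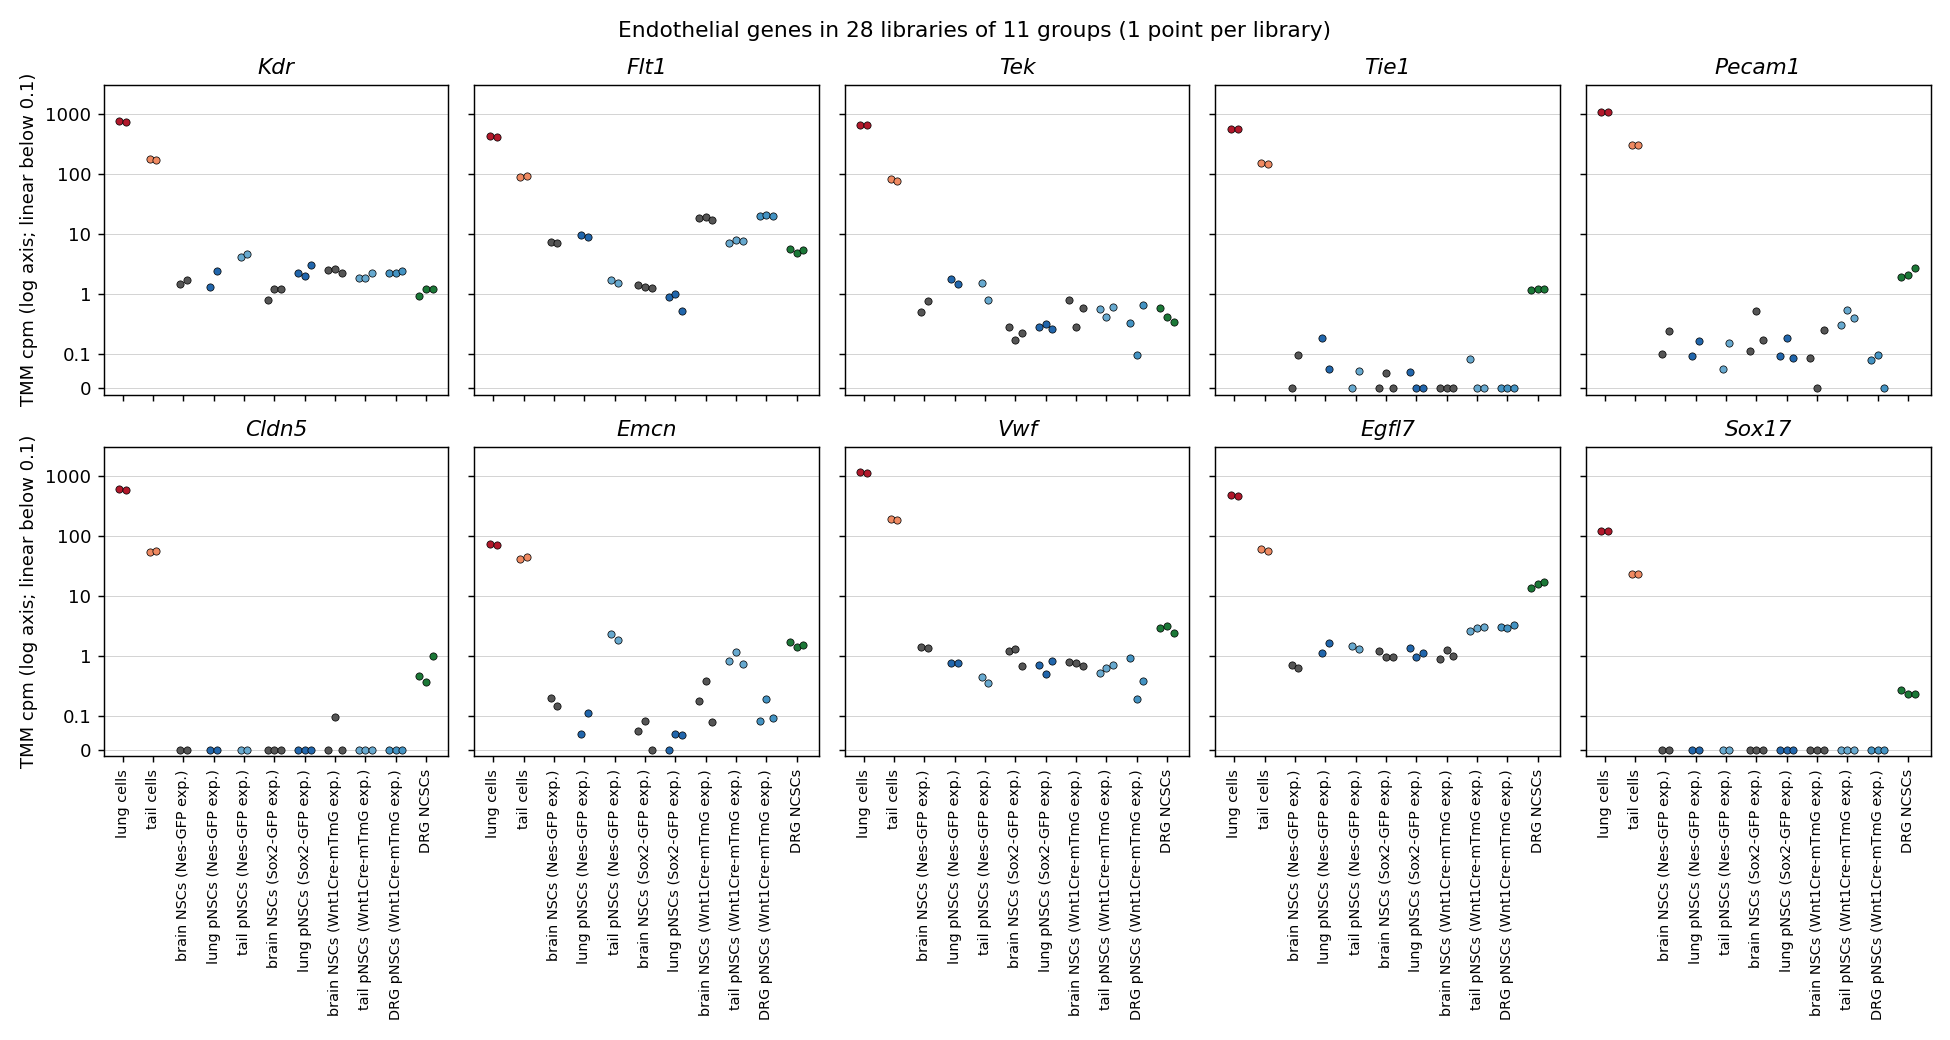
Level of each endothelial gene in each of the 28 libraries, in TMM cpm on a log axis that is linear below 0.1; points are libraries, ordered by group. Lung and tail cells lie above all cultured lines in every panel, and *Cldn5* and *Sox17* are at 0 in nearly all lines outside the NCSCs.

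Lung and tail cells were compared directly (n = 2 each). Of the 10 genes, 9 were higher in lung cells and none lower, where 22.9% of the 16948 genes tested were called higher and 20.5% lower. *Cldn5* differed the most, with 10823 and 9249 counts in lung cells and 956 and 888 in tail cells, a 10.1-fold difference (log2 3.34 ± 0.05, standard error). *Tek* had 11926 and 10486 counts against 1476 and 1196, 7.85-fold, and *Egfl7* 8714 and 7435 against 1061 and 888, 7.74-fold. *Vwf* was 5.82-fold and *Sox17* 4.90-fold higher. The VEGF receptor genes moved by less, *Flt1* by 4.41-fold (7754 and 6492 counts against 1570 and 1438) and *Kdr* by 4.16-fold (14041 and 11845 against 3163 and 2652). *Tie1* and *Pecam1* were 3.59- and 3.40-fold higher. *Emcn*, a gene of capillary and venous endothelium, stood outside this range. It had 1351 and 1130 counts in lung cells and 722 and 706 in tail cells, a 1.61-fold difference that passed the p-value threshold but not the fold limit (log2 0.69 ± 0.07, adjusted p = 1.5e-21, edgeR). The libraries of lung and tail cells did not overlap for any of the 10 genes.

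**Figure D2:**
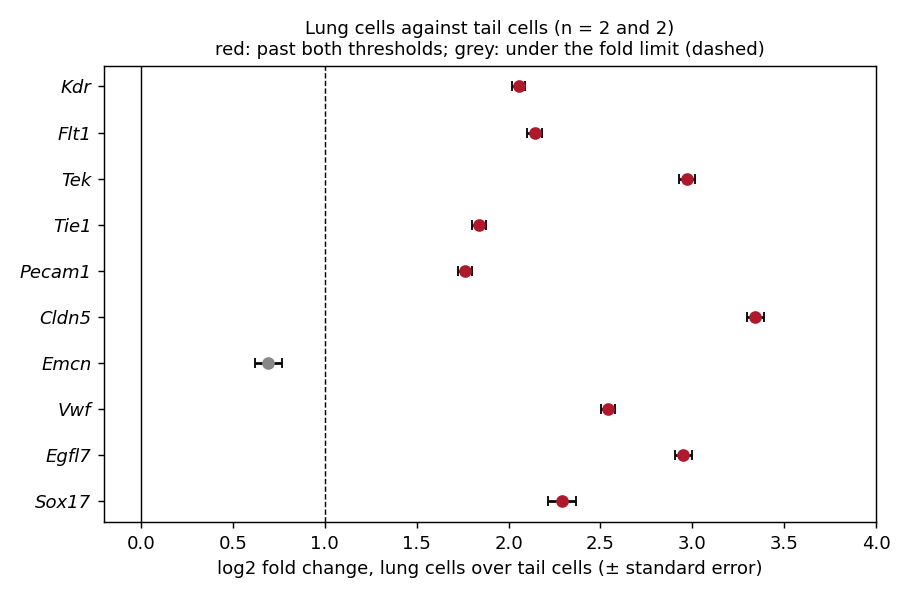
Log2 fold change of each gene between lung and tail cells (n = 2 each), with its standard error; the dashed line is the fold limit. *Cldn5* lies farthest to the right at 3.34 and *Emcn* alone lies under the limit, at 0.69.

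The median log2 difference of the 10 genes was 2.22, against -0.01 over all genes tested. Of 21 other endothelial genes, 18 were higher in lung cells, with a median of 2.10. *Cdh5*, the cadherin of endothelial junctions, was 5.57-fold higher and *Plvap*, a gene of fenestrated endothelium, 5.61-fold. *Mmrn2*, *Nos3* and *Cd34* were not called, and *Cd34* was 0.796 times as high in lung as in tail cells. Of the 8 ligand genes, 5 were higher, among them *Vegfa* (18.1-fold) and the angiopoietin gene *Angpt1* (5.19-fold). Of the receptor partners, *Ptprb*, a phosphatase that acts on the Tie2 receptor, was 9.92-fold and *Nrp1* 4.25-fold higher, while *Nrp2* was lower in lung cells. Genes of other cells moved too: 7 of 7 leukocyte genes (sums of 979 to 981 cpm in lung and 81.5 to 82.0 in tail cells) and 5 of 6 red cell genes (1314 to 1348 and 299 to 303 cpm) were higher in lung cells, and 6 of 7 fibroblast genes were lower. The part of cell composition in the differences was not tested.

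The pNSCs were compared with cells of the kind of tissue they came from to ask which tissue genes they express. Lung pNSCs of the Nes-GFP experiment had all 10 genes lower than lung cells, where 34.9% of genes tested were called lower and 20.2% higher. Here *Pecam1*, *Tie1*, *Cldn5* and *Sox17* passed the filter on low counts only through lung and tail cells, and *Emcn* through these and tail pNSCs. That these genes were lower in lung pNSCs thus follows in part from being tested. *Cldn5* and *Sox17* were at 0 in both libraries, at least 3853-fold and at least 783-fold lower. *Pecam1* had 2 and 3 counts against 19970 and 17051, a ratio of 8590 (interval 3681 to 26457). *Tie1* had 4 and 1 counts and *Emcn* 1 and 2. *Vwf* had 16 and 14 counts, 1503-fold below lung cells. *Kdr* (28 and 44 counts), *Tek* (38 and 27) and *Egfl7* (24 and 30) were 406-, 403- and 341-fold lower. *Flt1* fell the least, from 7754 and 6492 to 203 and 163 counts (45.2-fold). The lung pNSCs of the Sox2-GFP experiment were set against the same 2 samples of lung cells. Those belong to the Nes-GFP experiment and their age is not labelled, so that tissue, experiment and age cannot be told apart. In the Sox2-GFP fit, 10 of 10 genes were also lower in the lung pNSCs (34.9% of all genes, with 21.3% higher). In that fit *Pecam1*, *Tek*, *Tie1*, *Cldn5*, *Emcn* and *Sox17* passed the filter on low counts only through lung cells. Their being lower in the lines thus follows in part from being tested. There *Flt1* had 19, 22 and 12 counts and was 510-fold lower. *Tek*, at 6, 7 and 6 counts, was 2254-fold lower, while *Kdr* (48, 44 and 70 counts) was 307-fold lower.

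Tail pNSCs of the Nes-GFP experiment had 10 of 10 genes lower than tail cells, where 32.6% of genes tested were lower and 14.1% higher. The libraries of the groups did not overlap for any gene. In this fit *Pecam1*, *Tie1*, *Cldn5* and *Sox17* passed the filter on low counts only through lung and tail cells, so that their being lower in the lines follows in part from being tested. *Emcn* kept the largest share, with 41 and 37 counts against 722 and 706 (21.5-fold lower, log2 -4.43 ± 0.19). *Kdr* (73 and 91 counts) was 41.9-fold, *Egfl7* (26 and 26) 44.0-fold, *Flt1* (30 and 30) 58.99-fold and *Tek* (27 and 16) 71.7-fold lower. *Vwf*, with 8 and 7 counts against 3339 and 2904, was 487-fold lower. *Pecam1* (1 and 3 counts), *Tie1* (0 and 1), *Cldn5* (0 and 0) and *Sox17* (0 and 0) were at or under the detection limit. *Cldn5* was at least 362-fold and *Sox17* at least 152-fold lower. The median log2 change of the 10 genes was -9.70 in lung pNSCs and -6.72 in tail pNSCs with bounds for the genes at 0, or -10.16 and -7.55 as fitted. Over all genes tested the medians were -0.15 and -0.16. The other endothelial genes were lower in 21 of 21 cases in both lines. Leukocyte genes were lower in 7 of 7 and red cell genes in 6 of 6 (lung) and 5 of 6 (tail). In each line, 10 of the 21 other endothelial genes and 5 of the 7 leukocyte genes had at most 3 counts in every library. So did 5 of the 6 red cell genes in lung pNSCs and 4 of the 6 in tail pNSCs. These were tested only through other groups, so that their being lower also follows in part from being tested.

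Against brain NSCs the differences were small in counts and went both ways. In lung pNSCs of the Nes-GFP experiment, 2 genes were higher and none lower (4.56% and 4.15% of all genes tested). *Tek* had 38 and 27 counts against 10 and 16 in brain NSCs, 2.56-fold higher (log2 1.35 ± 0.34, adjusted p = 8.97e-05, edgeR). *Egfl7* had 24 and 30 counts against 14 and 13, 2.08-fold higher (log2 1.03 ± 0.34, adjusted p = 0.00552), and this call did not hold without lung pNSC replicate 2 (log2 0.74, adjusted p = 0.16) or brain NSC replicate 2 (log2 0.95, adjusted p = 0.0559). *Flt1*, the most abundant of the 10 in both groups per kilobase, had 203 and 163 counts against 145 and 145, 1.29-fold higher and under the fold limit (adjusted p = 0.00396). *Kdr* had 28 and 44 counts against 29 and 35, and the libraries overlapped (log2 0.21 ± 0.25, adjusted p = 0.57). *Vwf* had 16 and 14 counts against 28 and 28 (log2 -0.86 ± 0.33, adjusted p = 0.019), under the fold limit. In the Sox2-GFP experiment only *Kdr* was called in lung pNSCs, with 48, 44 and 70 counts against 14, 28 and 21 (2.31-fold, log2 1.19 ± 0.21, adjusted p = 1.13e-08). There, 5.76% of genes tested were called higher and 9.99% lower. Without lung pNSC replicate 3 its log2 fold change was 0.99, just under the limit. *Tek*, called in the Nes-GFP experiment, had 6, 7 and 6 counts against 5, 4 and 4 and was not called. *Egfl7* had 28, 21 and 25 counts against 21, 22 and 17 (log2 0.14 ± 0.25, adjusted p = 0.667). *Flt1* had 19, 22 and 12 counts against 25, 31 and 22 (log2 -0.72 ± 0.26, adjusted p = 0.00758), under the fold limit. *Pecam1* had 2, 4 and 2 counts against 2, 12 and 3 and was not called (adjusted p = 0.0536). Its difference (log2 -1.21) rested on brain NSC replicate 2, the library with 12 counts: without it the value was -0.21 (adjusted p = 0.866). It was called lower without lung pNSC replicate 2 (log2 -1.61), brain NSC replicate 1 (-1.54) or brain NSC replicate 3 (-1.45), all of which keep that library.

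Tail pNSCs of the Nes-GFP experiment differed from brain NSCs in 5 of the 10 genes, 3 higher and 2 lower (4.31% and 6.59% of all genes tested). *Emcn* had 41 and 37 counts against 4 and 3, a 12.1-fold difference (log2 3.54 ± 0.61, adjusted p = 7.69e-15, edgeR). *Kdr* had 73 and 91 counts against 29 and 35 (2.77-fold), the highest level of this gene in any cultured line. *Egfl7* had 26 and 26 counts against 14 and 13 (2.09-fold, adjusted p = 0.00383), and without tail pNSC replicate 1 or brain NSC replicate 2 its log2 fold change of 0.97 lay under the limit. *Flt1* was 4.46-fold lower, with 30 and 30 counts against 145 and 145, and *Vwf* 3.43-fold lower, with 8 and 7 against 28 and 28. *Tek* (27 and 16 counts against 10 and 16) stayed under the fold limit (log2 0.83 ± 0.36, adjusted p = 0.0366). This value depended on single libraries: it was 0.32 (adjusted p = 0.644) without tail pNSC replicate 1, 1.25 (adjusted p = 0.00556) without tail pNSC replicate 2 and 1.17 (adjusted p = 0.0289) without brain NSC replicate 2. In the Wnt1Cre-mTmG experiment, 7 of the 10 genes passed the filter on low counts, and *Tek*, *Cldn5* and *Sox17* did not. Of the 7, tail pNSCs had 3 higher and 1 lower than brain NSCs (9.16% and 9.05% of 14448 genes tested). *Emcn* had 19, 25 and 15 counts against 2, 4 and 1, a ratio of 4.37 (interval 1.99 to 11.3). *Egfl7* had 59, 63 and 60 counts against 10, 13 and 12 in shallower libraries (2.69-fold, adjusted p = 2.83e-05). *Flt1* was 2.40-fold lower, at 165, 174 and 151 counts against 208, 199 and 203. *Pecam1* had 7, 12 and 8 counts against 1, 0 and 3, a ratio of 3.50 (interval 1.22 to 13.8, adjusted p = 0.0326). That call did not hold without tail pNSC replicate 2 (adjusted p = 0.0986), brain NSC replicate 1 (0.103) or brain NSC replicate 2 (0.13), nor in DESeq2 (0.0637).

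In DRG pNSCs only *Egfl7*, of the 7 genes tested, was called against the brain NSCs of the experiment, with 36, 30 and 34 counts against 10, 13 and 12 (2.93-fold, log2 1.55 ± 0.29, adjusted p = 5.82e-05), where 3.12% of genes were higher and 6.41% lower. *Flt1* had 233, 209 and 205 counts, its highest level among the cultured lines at 20.01 ± 0.497 cpm, and brain NSCs had 208, 199 and 203 (log2 0.13 ± 0.11, adjusted p = 0.233). *Kdr* had 27, 23 and 25 counts against 28, 27 and 27 (log2 -0.09 ± 0.25, adjusted p = 0.793). *Tie1*, *Cldn5* and *Sox17* were at 0 in all 3 DRG pNSC libraries. *Tie1* and *Sox17* were also at 0 in all 3 brain NSC libraries, and *Cldn5* had 1 count in 1 of them.

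**Figure D3:**
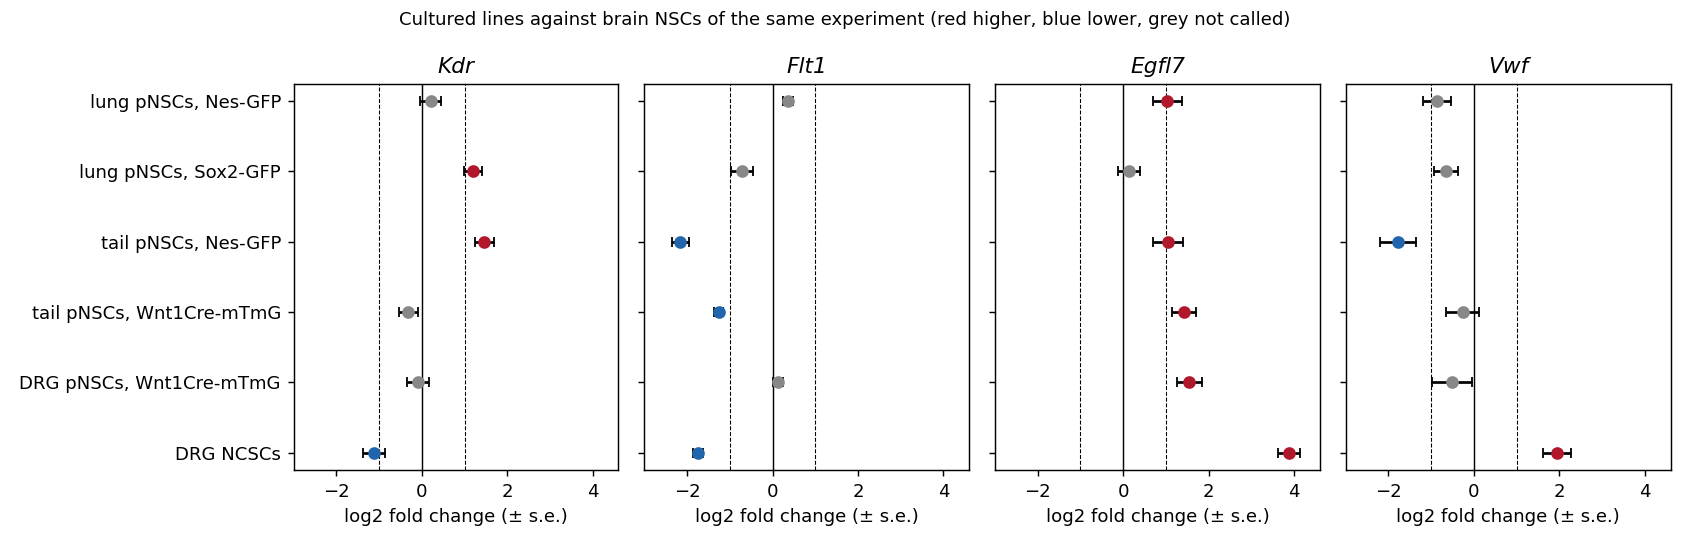
Log2 fold change of *Kdr*, *Flt1*, *Egfl7* and *Vwf* in each cultured line against the brain NSCs of its experiment, with standard errors; dashed lines mark the fold limits. *Egfl7* is called in every line but the Sox2-GFP lung pNSCs, and *Flt1* runs from -2.16 in Nes-GFP tail pNSCs to 0.37 in Nes-GFP lung pNSCs.

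NCSCs stood apart among the cultured lines. All 7 genes tested differed from brain NSCs, 5 higher and 2 lower, where 22.1% of genes tested were called higher and 14.8% lower. *Pecam1* and *Tie1* passed the filter on low counts through the NCSCs alone and *Emcn* through NCSCs and tail pNSCs, so that these 3 could be tested only because they were high there, and the count of 7 is no support of its own. *Egfl7* had 291, 337 and 292 counts against 10, 13 and 12, 14.8-fold higher (log2 3.88 ± 0.26, adjusted p = 4.83e-13, edgeR). *Pecam1* had 42, 45 and 47 counts against 1, 0 and 3, a ratio of 18.8 (interval 7.18 to 70.0). *Tie1* had 25, 26 and 21 counts and was at 0 in brain NSCs, at least 4.49-fold higher. *Vwf* had 64, 68 and 42 counts against 9, 8 and 8 (3.86-fold), and *Emcn* 37, 30 and 26 against 2, 4 and 1 (ratio 7.46, interval 3.48 to 19.1). The VEGF receptors went the other way. *Flt1* had 124, 104 and 95 counts, 3.37-fold lower, and *Kdr* 20, 26 and 21, 2.17-fold lower. The call for *Kdr* did not hold without NCSC replicate 1 (log2 -0.98, under the fold limit). Without NCSC replicate 3, the library that stood apart, all 7 calls remained. *Tek*, not tested, had 13, 9 and 6 counts in NCSCs against 9, 3 and 7 in brain NSCs. Its levels of 0.459 ± 0.129 and 0.562 ± 0.258 cpm overlapped. *Cldn5*, also not tested, had 10, 8 and 17 counts in NCSCs, against 1 count in all 21 other cultured libraries together. *Sox17* had 6, 5 and 4 counts and was at 0 in every other cultured library, which does not exceed 3 counts per library of brain NSCs once depth is taken into account.

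**Figure D4:**
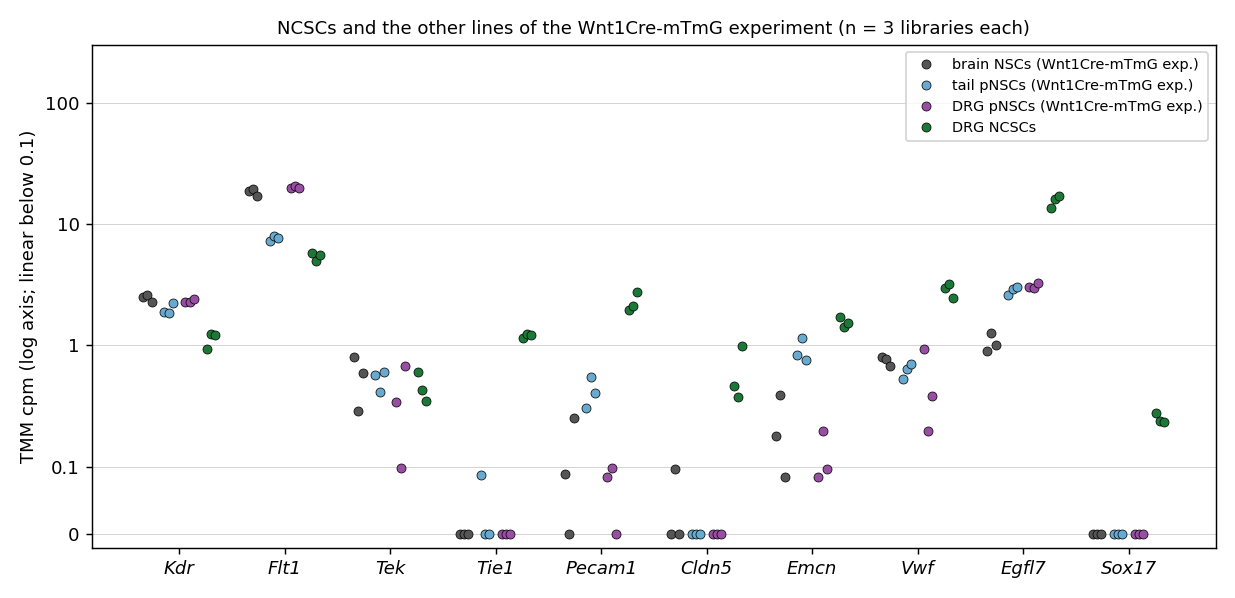
Levels of the 10 genes in the 12 libraries of the Wnt1Cre-mTmG experiment, in TMM cpm on a log axis that is linear below 0.1. NCSCs are the highest for *Tie1*, *Pecam1*, *Cldn5*, *Emcn*, *Vwf*, *Egfl7* and *Sox17* and the lowest for *Kdr* and *Flt1*.

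The pNSCs were also compared with NCSCs. In tail pNSCs *Pecam1* (5.44-fold), *Egfl7* (5.50-fold), *Vwf* (4.63-fold) and *Tie1* (2, 0 and 0 counts) were called lower than in NCSCs (22.6% of genes tested) and none was called higher (15.3%). *Kdr* (log2 0.80 ± 0.24, adjusted p = 0.000777, edgeR) and *Flt1* (log2 0.49 ± 0.13, adjusted p = 0.000168) were higher in every tail pNSC library than in any NCSC library, but under the fold limit. In DRG pNSCs 5 were lower (23.3% of genes), *Egfl7* by 5.05-fold and *Vwf* by 5.75-fold. In both comparisons *Pecam1* and *Tie1* were tested only because they passed the filter on low counts in NCSCs. *Vwf* passed it through NCSCs and brain NSCs, and *Emcn* through NCSCs and tail pNSCs. The counts of lower genes thus follow in part from which genes were tested. *Flt1* was 3.67-fold and *Kdr* 2.04-fold higher in DRG pNSCs (15.1% of genes), and the call for *Kdr* lay at the limit. Its log2 fold change of 1.03 was 0.98 both with RLE size factors and in DESeq2, 0.99 with no filter, and 0.90 without NCSC replicate 1. Without NCSC replicate 3 the counts of called genes were again 4 and 7. These comparisons share the NCSC samples. Even so, the NCSC levels were small beside tissue: *Egfl7* reached 3.30% of its level in lung cells, *Emcn* 2.15%, *Vwf* 0.255%, *Tie1* 0.216%, *Pecam1* 0.211% and *Cldn5* 0.105%. *Flt1* reached 1.31%, *Sox17* 0.210%, *Kdr* 0.150% and *Tek* 0.0705%. Shares of this size were also found in other lines, as *Flt1* was at 4.85% in DRG pNSCs and *Emcn* at 2.93% in Nes-GFP tail pNSCs.

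Other lists were compared between NCSCs and brain NSCs. Of 13 other endothelial genes tested, 9 were higher than in brain NSCs and 1 lower, against 22.1% and 14.8% of all genes tested. In the list of 21, 10 had at most 3 counts in every brain NSC library. Such genes could be tested only by being higher in another group, so that the count is no support of its own. *Clec14a*, an endothelial lectin gene, was at 99.8 cpm against 0.809, and *Cd34* at 23.2 cpm against 0.567. *Cdh5* was at 22.7 cpm, with at least 326 counts per library. *S1pr1*, a sphingosine phosphate receptor gene, was 0.108 times as high as in brain NSCs. *Nrp1* and *Nrp2* were 4.75- and 9.68-fold higher. The ligand genes went both ways and did not rise as a list: of 7 tested, 2 were higher (*Vegfd* and *Pgf*, 14.2- and 6.14-fold), 2 lower (*Angpt2* and *Vegfc*, 6.53- and 3.23-fold) and 3 not called, among them the most abundant, *Vegfa* (1.32-fold, under the fold limit). Their sum was 107 to 112 cpm in NCSCs and 112 to 122 cpm in brain NSCs. Leukocyte genes were higher in 7 of 7 cases, with sums of 132 to 143 cpm in NCSCs and 3.93 to 6.77 in brain NSCs, and fibroblast genes in 6 of 7. The same limit holds for the leukocyte genes, of which 4 had at most 3 counts in every brain NSC library. Red cell genes summed to 0.142 to 0.185 cpm, and all 6 had at most 3 counts in every NCSC library. Neural crest and Schwann genes were higher in 5 of 5 cases, as *Ngfr* was at 1208 cpm against 0.539. Whether other cells in these cultures take part in the endothelial signal was not tested.

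The order of levels differed from gene to gene in the cultured lines. *Pecam1*, *Tie1*, *Cldn5*, *Vwf*, *Egfl7* and *Sox17* were highest in NCSCs, without overlap with the next group. *Kdr* and *Emcn* were highest in the tail pNSCs of the Nes-GFP experiment, at 4.39 ± 0.312 and 2.11 ± 0.330 cpm. *Flt1* was highest in DRG pNSCs and *Tek* in lung pNSCs of the Nes-GFP experiment, where *Tek* overlapped with tail pNSCs. *Flt1* also varied between the brain NSCs of the 3 experiments, at 18.3 ± 1.07, 7.21 ± 0.206 and 1.35 ± 0.0896 cpm in the Wnt1Cre-mTmG, Nes-GFP and Sox2-GFP experiments. The libraries of these 3 groups did not overlap. The Nes-GFP and Sox2-GFP brain NSCs had like depths (20079812 and 20697929 counts, and 17026140 to 22637031), while the Wnt1Cre-mTmG brain NSCs were shallower (9846360 to 11315870). Mice and experiment cannot be told apart.

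*Pecam1* was used to ask which genes followed the same course over the 28 samples. Among 14594 genes with a mean of at least 1 cpm over groups, the 5 with the highest Pearson's r (log2 of cpm with 1 added) were *Dpt* (0.999), *Tie1* (0.998), *Slc6a2* (0.998), *Epn3* (0.998) and *Tbxa2r* (0.997). Of the other endothelial genes described here, *Vwf* ranked 18, *Sox17* 73, *Cldn5* 79, *Emcn* 200, *Tek* 225, *Kdr* 291, *Egfl7* 432 and *Flt1* 1772 (r = 0.81). These coefficients rest on the 4 tissue libraries, which lie far from the rest. Spearman's rho was 0.71 for *Tie1* and -0.03 for *Kdr*. They describe these samples and carry no p-value.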

How the data were processed

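Single-end reads had been mapped by the authors with HISAT2 on GRCm38, with annotation from Cufflinks and gene counts from HTSeq, and the authors deposited these raw counts for 28244 genes in 28 samples. The counting mode and annotation release are not given in the sources used here. No column lacked a sample. Members and gene lists were chosen with earlier results of these data known.

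Within an experiment, filterByExpr removed low genes (at a minimum count of 10 and a minimum total of 15), and the rest were scaled by TMM and tested with edgeR 4.0.16 (R 4.3.3) in a quasi-likelihood fit over its groups. Tests were two-sided and adjusted by Benjamini-Hochberg over all genes tested, which numbered 16948, 16234 and 14448. Standard errors are Wald errors with a quasi-dispersion of at least 1. Differences between experiments were tested as an interaction over all 28 samples. Replicates differed by more than counting error, but the excess was small in many groups. Squared differences per gene were 1.09 to 1.41 times counting error in the Sox2-GFP and Wnt1Cre-mTmG NSCs and pNSCs. They were 1.61 to 2.82 times counting error in the Nes-GFP experiment. The study calls its samples biological replicates without saying whether they were separate animals, derivations or cultures of a line. The p-values measure only the spread between these samples. An exact permutation test could not go below p = 0.333 with 2 samples against 2, or 0.1 with 3 against 3. At the depths given, 3 counts stand for 0.133 to 0.306 cpm, and intervals cover counting error only. The genes named are all 10 members, the 5 most like Pecam1 and, of each other list, the 3 with the highest mean cpm over the groups compared. Mmrn2, Nos3, Cd34 in lung and tail cells, and Cdh5, Vegfd, Pgf and Vegfc in NCSCs were named after their values were seen. Exon lengths came from GENCODE M21. The pipeline was tested on simulated data. Alternatives were DESeq2 1.42.0, RLE size factors, upper-quartile scaling, no filter, a fit of only the 2 groups compared, a fit of all 28 samples, no fold limit, a replicate block, and leaving out each replicate. Python 3.11.15 with matplotlib drew the figures.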

Additional observations from a re-analysis of the deposited data

Results flagged for a closer look

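The tail pNSC and lung pNSC lines were each made in 2 experiments, and the difference from brain NSCs was compared between them by an interaction term in edgeR over all 28 samples. Of 17393 genes, 48.7% passed for tail and 46.9% for lung, so that 3 and 2 of the 10 endothelial genes are not above the background. Both tests share the Nes-GFP brain NSCs.

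For *Kdr* the tail effect was -0.32 (log2) in the Wnt1Cre-mTmG and 1.47 in the Nes-GFP experiment, a difference of -1.78 ± 0.30 (adjusted p = 2.08e-06). For *Flt1* the tail effects were -1.27 and -2.16, which differ by 0.889 ± 0.233 (adjusted p = 0.000121). For *Vwf* they were -0.27 and -1.77, a difference of 1.501 ± 0.561 (adjusted p = 0.0119), which did not hold without tail pNSC replicate 2 of the Nes-GFP experiment (1.31, adjusted p = 0.0746). The lung effect of *Flt1* was -0.72 in the Sox2-GFP and 0.38 in the Nes-GFP experiment, a difference of -1.10 ± 0.29 (adjusted p = 0.000261). That of *Kdr* was 1.19 and 0.22, a difference of 0.976 ± 0.334 (adjusted p = 0.0106). It did not hold without Nes-GFP brain NSC replicate 2 (0.85, adjusted p = 0.0719), Sox2-GFP lung pNSC replicate 3 (0.74, 0.0629) or Nes-GFP lung pNSC replicate 1 (0.53, 0.237). Both tail lines came from postnatal mice, but from sorted GFP-positive cells in the Nes-GFP experiment. In the Wnt1Cre-mTmG experiment they came from unsorted or sorted GFP-negative cells. Both lung lines came from sorted cells, of adult mice in the Nes-GFP and postnatal mice in the Sox2-GFP experiment. For tail, reporter, sorting and experiment cannot be told apart, and for lung, reporter, age and experiment.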

How the results depend on the processing

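Of 187 counts of called genes under the alternatives, 175 stayed within 1.5 times the value reported. Some of these still gained genes. With no filter and in the fit of all 28 samples, which test members that the filter removed, NCSCs had 7 higher and 2 lower than brain NSCs. In both, and in DESeq2, Wnt1Cre-mTmG tail pNSCs had 6 lower than NCSCs. With no fold limit the count went from 2 to 4 in Nes-GFP lung pNSCs against brain NSCs, from 1 to 3 in Sox2-GFP lung pNSCs against brain NSCs, and from 4 to 7 in Wnt1Cre-mTmG tail pNSCs against NCSCs. Upper-quartile scaling gave 2 for the Sox2-GFP comparison, where *Pecam1* was added. Leaving out each replicate gave 1 to 2 genes for Nes-GFP lung pNSCs, 0 to 2 for Sox2-GFP lung pNSCs, both against brain NSCs, and 1 to 3 for the lung effect that differs between experiments. Where this left 1 sample in a group, it was assumed to vary like the other groups.

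Of 1379 values of single genes, 1329 kept their direction and call, 24 gained and 18 lost a call, and 8 changed direction, none of them past the threshold. Against Nes-GFP brain NSCs these are *Kdr* in lung pNSCs (-0.27 without lung pNSC replicate 2, of a range from -0.27 to 0.62) and *Pecam1* in lung pNSCs (-0.90 to 0.31) and tail pNSCs (-1.498 to 0.075), both without brain NSC replicate 2. The other 5 are differences of the lung effect. Those are *Vwf* without Sox2-GFP lung pNSC replicate 3 (-0.0049) or brain NSC replicate 3 (-0.043, of a range up to 0.36), *Pecam1* without Sox2-GFP brain NSC replicate 2 (-1.53 to 0.17), and *Emcn* without Sox2-GFP brain NSC replicate 3 (-0.026) or Nes-GFP lung pNSC replicate 1 (-0.060, of a range up to 1.15). The cause was not tested.

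Same-numbered replicates did not deviate together (r between -0.03 and 0.03), so that no pairing by number was seen. The study states that pNSCs and their control brain NSCs mostly came from the same mice. Which samples share mice is not labelled, and these correlations cannot exclude such pairing. The main tests took the samples as unpaired. With the replicate block the counts in lung and tail pNSCs against tissue were 10, 10 and 10, and the block changed none of the 14 counts. Over all genes, only removing the fold limit moved a count by over 1.5 times. In the Nes-GFP experiment it went from 9327 to 14582 (lung pNSCs against lung cells), 7916 to 14042 (tail pNSCs against tail cells), 7356 to 13910 (lung against tail cells), 1476 to 6835 (lung pNSCs against brain NSCs) and 1848 to 8318 (tail pNSCs against brain NSCs). In the Sox2-GFP experiment it went from 9136 to 14736 (lung pNSCs against lung cells) and 2556 to 10636 (against brain NSCs). In the Wnt1Cre-mTmG experiment it went from 2630 to 9460 (tail pNSCs), 1377 to 6634 (DRG pNSCs) and 5336 to 11804 (NCSCs) against brain NSCs, and from 5472 to 12076 (tail pNSCs) and 5540 to 11903 (DRG pNSCs) against NCSCs. Genes at or under 3 counts per library are at the limit of this depth.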
